A study of Mus musculus with 16 samples.

Results

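Immediate early genes are described here in flow-sorted mouse cardiac fibroblasts with Tcf21 deleted or TCF21 overexpressed. The 10 genes were taken by symbol, namely Fos, Fosb, Jun, Junb, Atf3, Egr1, Egr3, Nr4a1, Btg2 and Gadd45b, out of 19707 genes listed in at least 1 of 3 deposited tables. All 10 were listed in each table, and all 10 passed the filter on low values (a table mean of at least 10 normalized counts) in each. RNA was sequenced from 16 libraries in 6 groups, and every group came from adult mice aged 8 to 12 weeks that were given tamoxifen and carried a Rosa26 lox-stop-lox EGFP allele, by which recombined fibroblasts were sorted. Without injury, 3 libraries of Tcf21-MerCreMer mice with floxed Tcf21 alleles were set against 3 of Tcf21-MerCreMer mice, 2 weeks after tamoxifen. Under infusion with angiotensin II and phenylephrine for 1 week, which loads the heart and provokes fibrosis, 2 libraries of the same deletion were set against 3 of Tcf21-MerCreMer mice. Under that infusion, 2 libraries of Pdgfra-creERT mice with a Cre-activated Col1a1-TCF21 transgene were set against 3 of Pdgfra-creERT mice. The controls thus carry Cre and tamoxifen too, and the loss series drives Cre from Tcf21 while the gain series drives it from Pdgfra, so recombination follows cells that express each driver.

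Immediate early genes are transcribed within minutes of a stimulus from factors that are already in the cell, mainly serum response factor with its ternary complex partners and CREB, and they need no new protein to be switched on. Many encode transcription factors: Fos and Jun proteins pair through leucine zippers to form AP-1, Egr proteins bind GC-rich sites through zinc fingers, and Nr4a1 is an orphan nuclear receptor. In cardiac fibroblasts they respond to growth factors, angiotensin II and stretch, and they are also induced when tissue is dissociated to release cells for sorting.

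Library totals ran from 27814940 to 40970391 normalized counts, and libraries within a table correlated at 0.944 to 0.981 (Pearson, log2 scale). Each table was normalized on its own, so values are compared within a table only. Tcf21, the targeted gene, had 1244 to 1718 normalized counts in the deleted libraries without injury against 7507 to 8081 in their controls (5.56-fold lower). Under infusion it had 185 to 258 after deletion against 1510 to 2814 (9.21-fold lower), and 13502 to 14820 with the transgene against 5145 to 6235 (2.44-fold higher). All 12 fibroblast markers were listed in every group, with summed levels from 3067439 to 4756149 normalized counts, and none was under 1 normalized count throughout a group. The labels do not say that libraries came from separate animals, so each p-value reflects only library-to-library spread, which may be technical.

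The 10 genes covered a wide span of abundance in uninjured control fibroblasts. Divided by exon length, Fos, the main inducible AP-1 subunit, had a mean level of 80986 normalized counts per kb of exon (71434 to 90997 over 3 control libraries), which ranked 3 of 13951 tested genes with a length. Egr1, a zinc-finger factor induced by serum and stretch, followed at 34644 per kb (29558 to 40717). Jun, the partner of Fos, and Junb, a Jun relative that often restrains it, lay next at 28663 (26212 to 32015) and 28215 per kb (24727 to 31354). Their ranges overlapped over libraries, but within each library Egr1 exceeded Jun per kb (3 of 3 control libraries), while Jun exceeded Junb in 2 of 3. Btg2, an antiproliferative protein that recruits the CCR4-NOT deadenylase, had 10694 per kb (9134 to 13175) and Nr4a1 had 9304 per kb (7372 to 10427), with Btg2 the higher of this pair in 2 of 3 libraries. Atf3, a stress-induced leucine-zipper repressor, came next with 4574 per kb (3606 to 6368). Gadd45b, a stress protein that activates the p38 and JNK kinase cascades, had 1226 per kb (930 to 1525) and Fosb, a Fos paralogue, had 879 per kb (605 to 1323), with Gadd45b higher in 3 of 3 libraries. Egr3, a lower-abundance relative of Egr1, stood last at 81.4 per kb (67.2 to 108), at rank 9075. In the infused controls, each in its own table, Fos ranked 15 and 7, and Egr3 ranked 6303 and 7155. The 10 genes together took 1.34% to 1.77% of all normalized counts in uninjured controls.

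Promoter sequences are shown for Fos, the most abundant of the genes, and for Nr4a1, Btg2 and Gadd45b, whose values the results below turn on. RefSeq promoters (build GRCm38.p6) were used for 8 of the 10 genes, without Egr1 and Egr3. Each line gives the 250 bases before the RefSeq transcription start, 5′ to 3′ on the coding strand. Fos is from chr12:85473640-85473889 (plus strand), Nr4a1 from chr15:101266596-101266845 (plus), Btg2 from chr1:134079156-134079405 (minus) and Gadd45b from chr10:80929841-80930090 (plus). Capitals mark the CREB core TGACGT, the E-box CAGCTG, the TATA element TATAAA and the Egr site GCGNGGGCG on either strand.
Fos: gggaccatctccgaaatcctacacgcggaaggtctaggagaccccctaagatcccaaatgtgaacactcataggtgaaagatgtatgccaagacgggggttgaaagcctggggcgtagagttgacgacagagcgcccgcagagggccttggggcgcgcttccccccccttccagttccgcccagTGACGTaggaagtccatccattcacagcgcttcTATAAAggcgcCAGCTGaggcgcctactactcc
Nr4a1: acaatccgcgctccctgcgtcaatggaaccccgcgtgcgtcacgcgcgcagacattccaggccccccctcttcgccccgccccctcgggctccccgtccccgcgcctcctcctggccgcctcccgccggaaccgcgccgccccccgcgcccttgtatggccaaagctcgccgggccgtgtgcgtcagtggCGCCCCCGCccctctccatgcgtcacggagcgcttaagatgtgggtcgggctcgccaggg
Btg2: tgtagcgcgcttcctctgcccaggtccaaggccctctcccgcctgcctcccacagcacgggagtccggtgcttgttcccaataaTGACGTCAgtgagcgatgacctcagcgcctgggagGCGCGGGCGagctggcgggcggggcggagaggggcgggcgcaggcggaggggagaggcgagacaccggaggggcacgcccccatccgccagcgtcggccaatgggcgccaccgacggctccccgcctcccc
Gadd45b: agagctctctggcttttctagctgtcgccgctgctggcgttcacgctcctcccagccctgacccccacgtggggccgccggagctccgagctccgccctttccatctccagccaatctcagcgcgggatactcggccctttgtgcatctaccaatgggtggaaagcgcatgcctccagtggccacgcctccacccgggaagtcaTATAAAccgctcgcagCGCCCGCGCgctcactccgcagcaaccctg
The Fos promoter held TGACGT at -66 to -61 from the start, TATAAA at -33 to -28 and CAGCTG at -22 to -17. Btg2 held the full CREB palindrome TGACGTCA at -166 to -159, which contains TGACGT on both strands, and an Egr site at -131 to -123. Gadd45b held TATAAA at -46 to -41 and an Egr site on the minus strand at -30 to -22, and Nr4a1 held an Egr site on the minus strand at -60 to -52.

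Searched over 300 bases (250 before and 50 from the start, both strands), the Egr site GCGNGGGCG was in 4 of the 8 promoters (Fosb, Nr4a1, Btg2, Gadd45b) and in 5.55% of all 32851 promoters of that length. The CREB core TGACGT was in 3 (Fos, Atf3, Btg2) against 7.51% of all, and TGACGTCA was in 1 (Btg2) against 1.79%. TATAAA was in 3 (Fos, Junb, Gadd45b) against 13.6%, although in Junb it lay at bases 1 to 6, not before the start. CAGCTG was in 2 (Fos, Junb) against 16.3%, and the wider E-box CANNTG, which includes CAGCTG, was in 6 against 72.3%. The AP-1 site TGANTCA was in 0 of the 8 against 7.81%, AAAGGTCA, the monomer site of Nr4a receptors, in 0 against 1.51%, and the CArG box of serum response factor in 0 against 1.63%. These matches describe letters in short windows of 8 genes. Egr1, which lies on chromosome 18, was left out of the search, although the set of all promoters kept that chromosome. Egr3 was not searched. The counts out of 8, including the 0 for the CArG box, therefore say nothing about Egr1 or Egr3. Sites more than 250 bases before the start were not searched either, so a count of 0 does not show that a gene lacks the site.

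Without injury, Nr4a1 was the immediate early gene of the 10 that passed the test, and it was lower after Tcf21 deletion. Its normalized counts were 35487, 25867 and 36589 in the controls and 20786, 16221 and 16843 after deletion. The groups did not overlap. Nr4a1 fell by 0.85 on the log2 scale (SE 0.15, limma adjusted p = 0.0227), with group means 1.82-fold lower. This was 1 of 10 genes past the adjusted threshold of 0.05, where 3.58% of all tested genes passed (1.96% lower). At an unadjusted p under 0.05 there were 2 of 10, Nr4a1 and Btg2, against 21.2% of all.

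Btg2 was the other gene whose groups were apart, which held for 13.6% of all tested genes in the lower direction. It had 26809, 25054 and 36138 normalized counts in the controls against 20086, 21129 and 21485 after deletion. Its log2 difference of -0.47 (SE 0.13) had a limma adjusted p of 0.0809.

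Among the AP-1 genes, Fos had 168012 to 214026 normalized counts in controls and 175381 to 184995 after deletion, a log2 difference of -0.07 (95% interval -0.32 to 0.19). Jun differed by -0.05 (-0.30 to 0.20) and Junb by -0.06 (-0.30 to 0.19) on the log2 scale. Fosb and Atf3 differed by 0.24 (-0.34 to 0.82) and 0.14 (-0.30 to 0.57), with overlapping groups. These intervals leave room for changes of either sign. Egr1 differed by -0.23 (-0.53 to 0.06), Egr3 by -0.09 (-0.72 to 0.53) and Gadd45b by 0.02 (-0.35 to 0.38). Of the 10 genes 7 lay below 0, as 51.5% of all tested genes did, with a median log2 difference of -0.06 against -0.01 over all tested genes.

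The Nr4a1 call was lost without control library 1 (adjusted p = 0.0809), control library 3 (0.106) or deleted library 2 (0.0573), and when the variance trend was left out of limma (0.134). Beside these values, the marker sums after deletion were 12196 to 13865 against 15876 to 16027 normalized counts for 10 of 10 endothelial genes (Cdh5 and Tie1 under 1 in every deleted library; 5 of 6 tested below 0), and 29041 to 32802 against 34401 to 38515 for 10 of 10 mural genes (10 of 10 below 0). The sums were higher for 13 of 14 myeloid genes (1634 to 2405 against 1437 to 1566) and 5 of 8 Schwann genes (1919 to 2323 against 1661 to 1737). Of the myeloid genes 3 of 11 tested lay below 0. Of the Schwann genes 2 of 4 tested did, with a median log2 difference of 0.02. The part of these cell types in the result was not tested. In these bulk samples fewer cells of a type and less RNA per cell cannot be told apart.

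**Figure D1:**
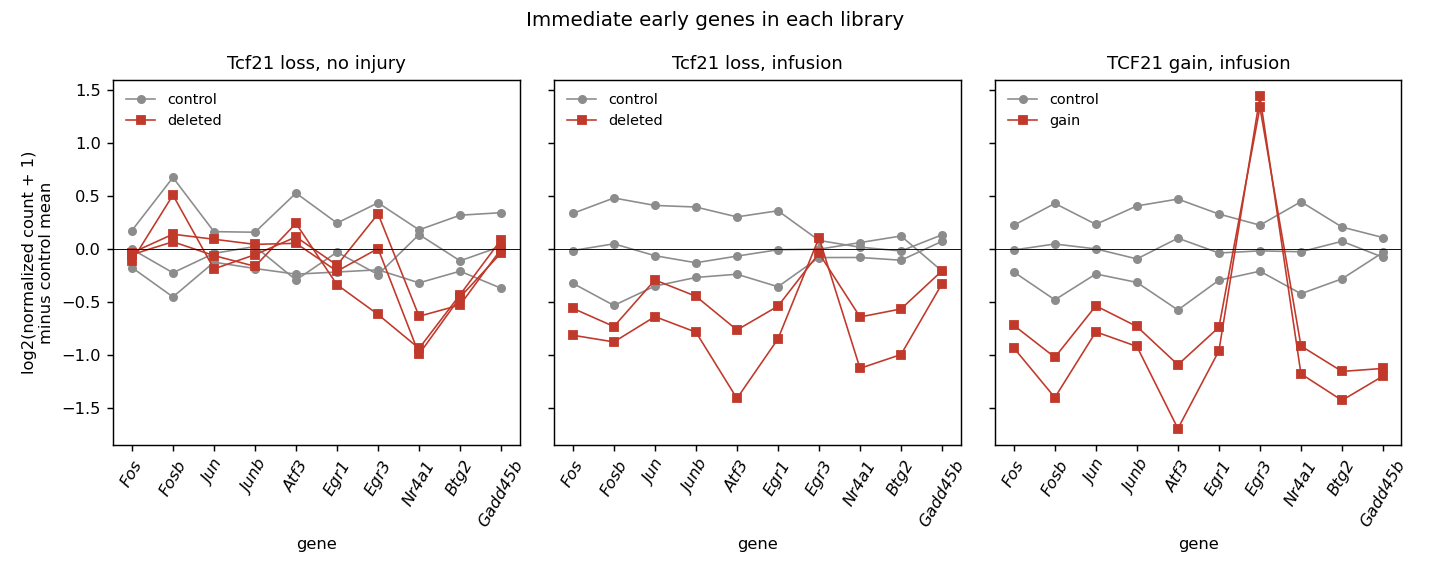
Level of each of the 10 genes (x axis) in each library, as log2(normalized count + 1) minus the control mean of the same table (y axis); each line joins the values of 1 library, grey for controls and red for deleted or transgenic libraries. Without injury the red lines leave the grey ones at Nr4a1 and Btg2, under infusion most red points lie below the controls, and in the gain series Egr3 lies above them.

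Under infusion, 9 of 10 immediate early genes had a log2 difference below 0 after Tcf21 deletion (7397 of 14799 tested genes did), but 0 passed the limma threshold after adjustment, where 0.912% of all tested genes did. At an unadjusted p under 0.05 there were 7 (Fos, Fosb, Junb, Atf3, Egr1, Nr4a1, Btg2), against 16.1% of all tested genes. The groups of those 7 also did not overlap, each lower after deletion, which held for 17.7% of all tested genes. The median log2 difference over the 10 genes was -0.69, while that over all tested genes was 0.00.

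Fos had 114971, 90150 and 72727 normalized counts in the infused controls and 61762 and 51787 after deletion. The highest deleted library lay below the lowest control, and the log2 difference was -0.69 (SE 0.23, limma adjusted p = 0.236). Egr1 followed the same order of libraries, with 112527, 87184 and 68443 against 60281 and 48644 and a log2 difference of -0.69 (adjusted p = 0.251). Jun, at 59098, 42528 and 34860 against 36286 and 28547, overlapped (log2 difference -0.46, adjusted p = 0.393). Control library 1 was the highest and control library 3 the lowest for all of Fos, Jun and Egr1.

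Atf3 had the lowest log2 difference of the 10. It had 6880, 5323 and 4728 normalized counts in controls and 3283 and 2097 after deletion, a log2 difference of -1.09 (SE 0.23, limma adjusted p = 0.102). Fosb had 7318, 5422 and 3622 against 3156 and 2853 (-0.80, adjusted p = 0.231), and Junb had 22569 to 35775 against 15778 to 19953 (-0.61, adjusted p = 0.255). None of the 3 groups of values overlapped with its controls.

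Nr4a1 and Btg2 had closer control libraries than the AP-1 genes. Nr4a1 had 12895, 13289 and 12055 normalized counts in controls and 8169 and 5836 after deletion, a log2 difference of -0.88 (SE 0.15, limma adjusted p = 0.0643). Btg2 had 20276, 22365 and 19087 against 13876 and 10298, a log2 difference of -0.78 (SE 0.15, adjusted p = 0.0886). In both genes the controls spanned a narrow range and the deleted libraries lay well under it. Gadd45b, at 2894, 2282 and 2774 against 2287 and 2102, overlapped with a log2 difference of -0.27 (95% interval -0.56 to 0.03). Egr3, at 598, 565 and 535 against 550 and 609, had a log2 difference of 0.03 (-0.25 to 0.31).

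Without control library 3, Fosb passed (limma adjusted p = 0.0382), and with libraries weighted by limma's arrayWeights, Nr4a1 (0.0306) and Btg2 (0.0420) did. Beside these values, the endothelial markers (10 of 10) summed to 2797 to 3233 normalized counts after deletion against 3727 to 6760, although 4 of 8 tested lay below 0 and the median log2 difference was -0.01. The myeloid markers (11 of 14 listed) summed to 570 to 906 against 993 to 1151, with 10 of 10 tested below 0 and Adgre1 under 1, and the erythroid markers (6 of 9) to 183 to 504 against 71.1 to 78.6. Their part in the differences was not tested.

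With TCF21 overexpressed under infusion, 3 immediate early genes fell and 1 rose. Gadd45b, Btg2 and Fosb were lower, and Egr3 was 2.60-fold higher by group means. Thus 4 of 10 genes passed the limma threshold, where 4.14% of all tested genes passed (2.57% lower and 1.57% higher). The groups did not overlap for any of the 10, with 9 lower (20.1% of all tested genes) and 1 higher (19.1%). All 10 had an unadjusted p under 0.05, against 20.4% of all tested genes, and 9 lay below 0, against 49.0%. The median log2 difference was -0.95, against 0.01 over all tested genes.

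Egr3 had 644, 563 and 762 normalized counts in the infused controls and 1648 and 1771 with the transgene. Both transgenic libraries lay above every control, with group means of 1709 ± 87.1 (SD, n = 2) and 656 ± 99.8 (SD, n = 3). Egr3 rose by 1.39 on the log2 scale (SE 0.14, 95% interval 1.05 to 1.72, limma adjusted p = 0.00686). Its relative Egr1 had 126253, 105678 and 162914 normalized counts against 77680 and 66579, a log2 difference of -0.85 (SE 0.21, adjusted p = 0.0749). The log2 ratio of Egr3 to Egr1 within a library, set to 0 at the control mean, was 2.08 and 2.40 with the transgene and -0.10 to 0.08 in the controls. A ratio within a library does not depend on how libraries were scaled.

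Gadd45b had 4418 to 5026 normalized counts in the 3 controls and 2134 and 2030 with the transgene, a 2.24-fold lower mean. The libraries of each group lay close together, and Gadd45b fell by 1.16 on the log2 scale (SE 0.09, limma adjusted p = 0.00308). Btg2 had 28976, 22668 and 31810 against 12369 and 10235, a 2.46-fold lower mean. It fell by 1.29 on the log2 scale (SE 0.16, adjusted p = 0.0103). Egr3 and Gadd45b passed whichever single library was left out, while Btg2 did not pass without transgenic library 2 (adjusted p = 0.0711).

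Of the AP-1 genes, Fosb passed. It had 8479, 5884 and 11058 normalized counts in controls and 4039 and 3104 with the transgene, and it fell by 1.21 on the log2 scale (SE 0.25, limma adjusted p = 0.0443). This call was lost without control library 1 (adjusted p = 0.115), transgenic library 1 (0.101) or transgenic library 2 (0.228). Atf3 had 10832, 6771 and 13992 against 4732 and 3116, a log2 difference of -1.39 (SE 0.30, adjusted p = 0.0514). Its controls varied widely, and both transgenic libraries lay below them.

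Fos had 166513, 144155 and 195725 normalized counts in the controls and 101685 and 87728 with the transgene, a log2 difference of -0.83 (SE 0.19, limma adjusted p = 0.0614). Junb had 34529 to 56954 against 22710 to 25878 (-0.82, adjusted p = 0.0771), and Jun had 57254 to 79221 against 39202 to 46482 (-0.66, adjusted p = 0.0815). These genes kept the order of the libraries that Fos showed, with control library 3 highest. Nr4a1 had 25066, 19046 and 34773 against 13532 and 11275, a log2 difference of -1.05 (SE 0.23, adjusted p = 0.0562).

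The count of 4 became 9 without control library 2, 7 without control library 3, 2 without transgenic library 2, and 0 without the variance trend, where adjusted p was 0.0664 for Egr3 and 0.0606 for Gadd45b. Beside these values, the fibroblast markers (12 of 12) summed to 3174955 to 3403265 normalized counts with the transgene against 4450740 to 4756149, with 10 of 12 below 0. The endothelial markers (10 of 10) summed to 5208 to 6495 against 7981 to 11049, although 4 of 9 tested lay below 0 and the median log2 difference was 0.23. Sums were also lower for mural (27040 to 29936 against 32796 to 39506) and Schwann markers (1094 to 1152 against 1465 to 1581). Of the mural markers 6 of 9 tested lay below 0, while 1 rose and 0 fell past the limma threshold. Of the Schwann markers 4 of 4 tested lay below 0. Higher sums were seen for cardiomyocyte (992 to 1064 against 799 to 854) and erythroid markers (201 to 283 against 72.4 to 134). Of the cardiomyocyte markers, however, 5 of 9 tested lay below 0, with a median log2 difference of -0.06, and 1 rose past the limma threshold. Of the erythroid markers 0 of 4 tested lay below 0. No marker of these lists was under 1 throughout a group, and their part in the differences was not tested.

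**Figure D2:**
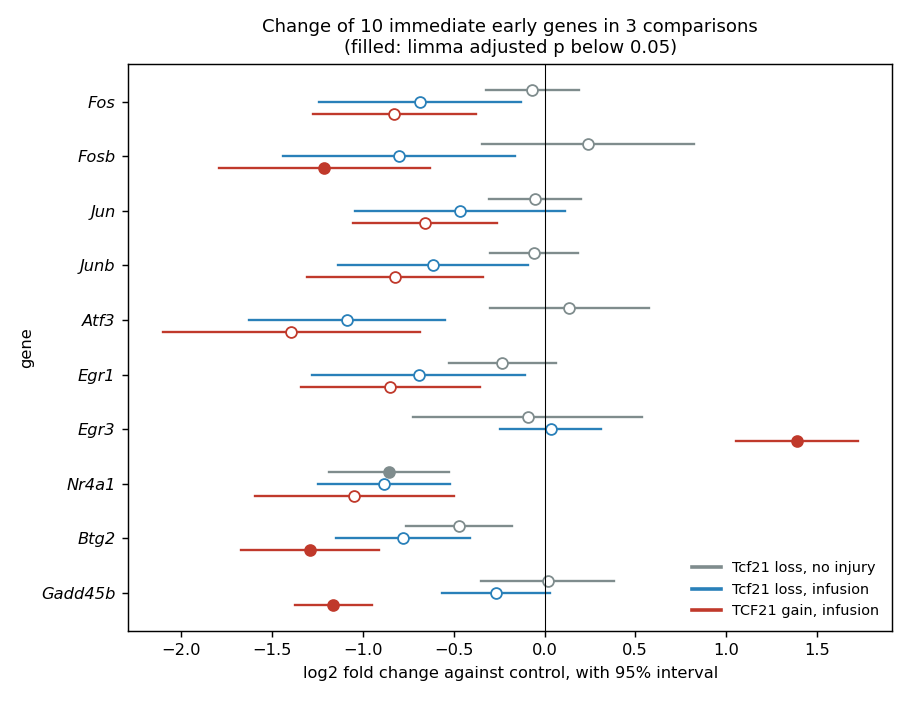
Log2 fold change of each of the 10 genes (y axis) against the controls of its table (x axis) in the 3 comparisons, with 95% intervals from limma; filled symbols have an adjusted p below 0.05. Filled symbols are Nr4a1 without injury and Fosb, Egr3, Btg2 and Gadd45b in the gain series.

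Nr4a1 and Btg2 were the genes of the 10 whose changed libraries lay below every control library in all 3 comparisons. Among 13939 genes tested in all 3, 151 (1.08%) did so. Nr4a1 differed by -0.85 without injury, -0.88 with deletion under infusion and -1.05 with the transgene on the log2 scale. Btg2 differed by -0.47, -0.78 and -1.29. The 3 comparisons share no library.

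**Figure D3:**
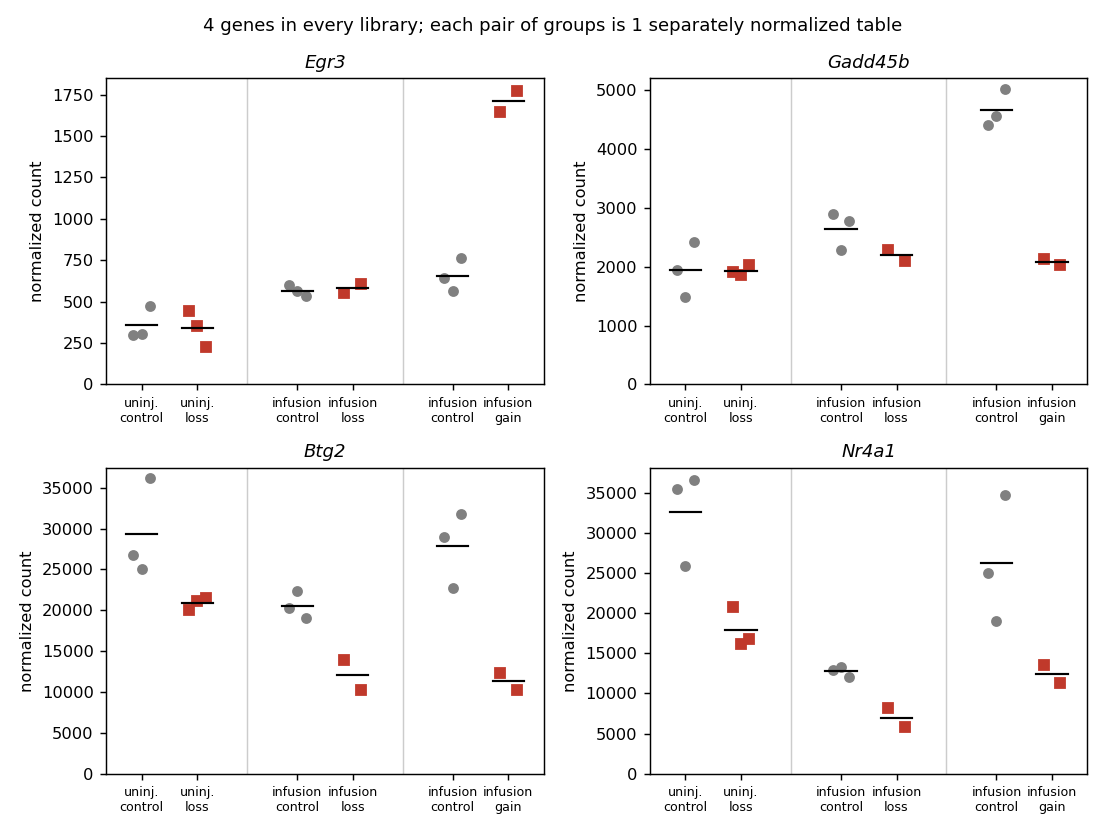
Normalized counts (y axis) of Egr3, Gadd45b, Btg2 and Nr4a1 in every library of the 6 groups (x axis), with a bar at each group mean; vertical lines separate tables that were normalized separately, so heights compare only between neighbours. The Egr3 points of the gain group (1648 and 1771) lie above their controls, and the Nr4a1 and Btg2 points of each deleted or transgenic group lie below theirs.

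The effect of deletion under infusion was compared with its effect without injury by an interaction contrast. None of the 10 genes passed in limma, where 0.149% of all tested genes did, and 3 (Fos, Fosb, Atf3) had an unadjusted p under 0.05 against 11.6% of all. The Atf3 difference between the effects was -1.22 on the log2 scale (95% interval -1.97 to -0.48, adjusted p = 0.275). Fosb had -1.04 (-2.00 to -0.09, adjusted p = 0.392) and Fos had -0.62 (-1.21 to -0.03, adjusted p = 0.407). The Nr4a1 difference was -0.03 with an interval from -0.55 to 0.50.

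The effects of loss and gain under infusion differed for 2 of the 10 genes, where 2.93% of all tested genes passed. The Egr3 effect was 1.36 lower on the log2 scale with loss than with gain (-1.36, SE 0.19, limma adjusted p = 0.00547), and it passed under every alternative run. The Gadd45b effect was higher with loss than with gain by 0.90 (SE 0.16, adjusted p = 0.0179). This call was lost without the variance trend (limma adjusted p = 0.0520), and also without deleted library 1, transgenic library 1 or transgenic library 2. Leaving out each of these libraries gave differences of 0.84, 0.93 and 0.86. Fos differed by 0.14 between the effects (95% interval -0.55 to 0.83), Nr4a1 by 0.16 (-0.55 to 0.88) and Btg2 by 0.51 (-0.03 to 1.06). The Cre driver and the table differ between these 2 series as well, and cannot be told apart from the direction of the TCF21 change.

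Libraries differed in the level of these genes as a block. In mean log2 over the 10 genes, set to 0 at the control mean, the uninjured controls stood at -0.08, -0.25 and 0.32 and the deleted libraries at -0.07, -0.14 and -0.22. The infused controls of the loss series stood at 0.25, -0.03 and -0.23, and the deleted libraries at -0.48 and -0.77. The gain controls stood at 0.00, -0.31 and 0.31, and the transgenic libraries at -0.67 and -0.91. Under infusion the changed libraries thus lay below all of their controls, and without injury they lay within the control range. The labels used here record no dissociation time, so its part in these levels was not tested.

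The genes outside the 10 with profiles most like this mean were sought over 16 libraries and 11210 genes whose mean reached 50 in each table, by the root mean square difference of log2 values. They were Ier2 (0.116), Klf2 (0.121), Ppp1r15a (0.125), Bhlhe40 (0.130), Nfkbiz (0.133) and Pde4b (0.155), where the median gene had 0.457 and a flat profile 0.406. Ier2 and Klf2 are themselves known as immediate early genes. Of the 10, Egr1 (0.0719), Fos (0.0856), Junb (0.0918) and Jun (0.131) lay closest to the mean, in which they take part. Atf3 (0.334), Nr4a1 (0.357) and Egr3 (0.827) lay farthest.

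A list of 43 other immediate early and early response genes showed how far the pattern reached. Without injury 0 of 42 tested passed in limma (3.58% of all tested genes did), with a median log2 difference of -0.02. An unadjusted p under 0.05 held for 12 (21.2% of all). After deletion under infusion 1 fell (0.912% of all passed in either direction). There 35 of 42 lay below 0 (7397 of 14799 tested genes did), with a median of -0.38, and 18 had an unadjusted p under 0.05 (16.1% of all). With the transgene 7 fell (2.57% of all), 0 rose (1.57%) and 40 of 42 lay below 0 (49.0%), with a median of -0.59. The 7 were Zfp36 (-1.25), a zinc-finger protein that speeds decay of AU-rich mRNAs, Tnfaip3 (-0.93), a brake on NF-kappaB, Klf2 (-0.89), the growth factor gene Hbegf (-0.81), Zfp36l2 (-0.80), the kinase gene Plk2 (-0.77) and Ier3 (-0.75). Hbegf, Zfp36l2 and Ier3 were named after their values were seen. This count of 7 was 2 without control library 1, 15 without control library 2 (14 lower, 1 higher), 1 without transgenic library 1, 1 without transgenic library 2 and 0 without the variance trend.

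Sik1, which encodes a salt-inducible kinase transcribed from CREB sites, was the 1 gene of that list that fell after deletion under infusion. It had 984, 1039 and 727 normalized counts in controls and 231 and 187 after deletion, and it fell by 2.12 on the log2 scale (SE 0.19, limma adjusted p = 0.00568). The call was lost when either deleted library was left out, with adjusted p up to 0.0796. Without injury Sik1 had 1769, 1582 and 2299 against 990, 890 and 383, a log2 difference of -1.42 (adjusted p = 0.0503), and in the gain series it had 1740, 1571 and 2563 against 1323 and 954, a difference of -0.77 (adjusted p = 0.118). The groups did not overlap in any of the 3, each lower, which held for 151 of 13939 genes tested in all 3 (1.08%). Sik1 was named for its small p within its list.

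Among 20 family relatives of the 10 genes, 0 of 17 tested passed without injury, where 3.58% of all tested genes did. An unadjusted p under 0.05 held for 4, against 21.2% of all. After deletion under infusion 0 of 19 passed (0.912% of all did), with 5 at that unadjusted level against 16.1% of all. With the transgene 1 of 18 fell, where 2.57% of all tested genes did, namely Jund, the constitutive Jun relative, at 16130, 13057 and 17464 normalized counts against 9737 and 8267 (log2 difference -0.78, limma adjusted p = 0.030). The Jund call was lost without control library 1, transgenic library 1 or transgenic library 2, and without the variance trend. Egr2, another Egr family member, had 7557, 8059 and 10571 against 7463 and 7999 in the gain series, so these values overlapped (log2 difference -0.16). Nr4a2 differed by -0.52 there, without passing. After deletion Egr2 differed by -0.39 without injury (limma adjusted p = 0.119) and by -0.33 under infusion (adjusted p = 0.176). Its deleted libraries lay below every control in both, which held for 13.6% and 17.7% of all tested genes.

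The known inducers were listed as 24 genes of the serum response factor, CREB and MAP kinase pathways. Mapk3 (ERK1) rose by 0.36 on the log2 scale without injury (limma adjusted p = 0.0450), and it was the 1 of 24 tested to pass, a share near the 3.58% of all tested genes. After deletion under infusion 0 of 23 passed (0.912% of all did), with 6 at an unadjusted p under 0.05 against 16.1% of all. In the gain series Srf itself was the 1 of 24 to pass, at 721, 664 and 687 normalized counts against 1019 and 1019 (log2 difference 0.56, adjusted p = 0.0315), again near the share of all tested genes (4.14%). The Mapk3 call was lost when any 1 of the 6 libraries was left out and the Srf call in 4 of 5 cases.

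Heat shock genes, which dissociation also induces, were followed as 16 genes. Without injury 3 fell, where 1.96% of all tested genes did, and 14 of 16 lay below 0 (51.5% of all), with a median log2 difference of -0.22. They were the chaperone genes Hspa8 (-0.66, limma adjusted p = 0.00952), Hsph1 (-0.98, 0.0287) and Dnaja1 (-0.45, 0.0395). The count of 3 was 1 without control library 1, control library 2 or deleted library 2, 2 without deleted library 3, and 0 without control library 3 or the variance trend. After deletion under infusion 1 fell, Dnajb1 (-0.68, adjusted p = 0.0334), where 0.912% of all tested genes passed; 4 of 16 lay below 0 and the median was 0.20. The Dnajb1 call was lost whichever library was left out, 2 other genes rose without control library 3, and the median was 0.48 without deleted library 1 and -0.06, with 11 of 16 below 0, without deleted library 2. With the transgene 1 fell, Dnajb4 (-0.52, adjusted p = 0.0426), where 2.57% of all tested genes fell; 9 of 16 lay below 0 and the median was 0.00. The Dnajb4 call was lost whichever library was left out, although 1 gene of the list fell without control library 2 and 1 without control library 3. The list median was -0.13 without transgenic library 1 and 0.11 without transgenic library 2.

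**Figure D4:**
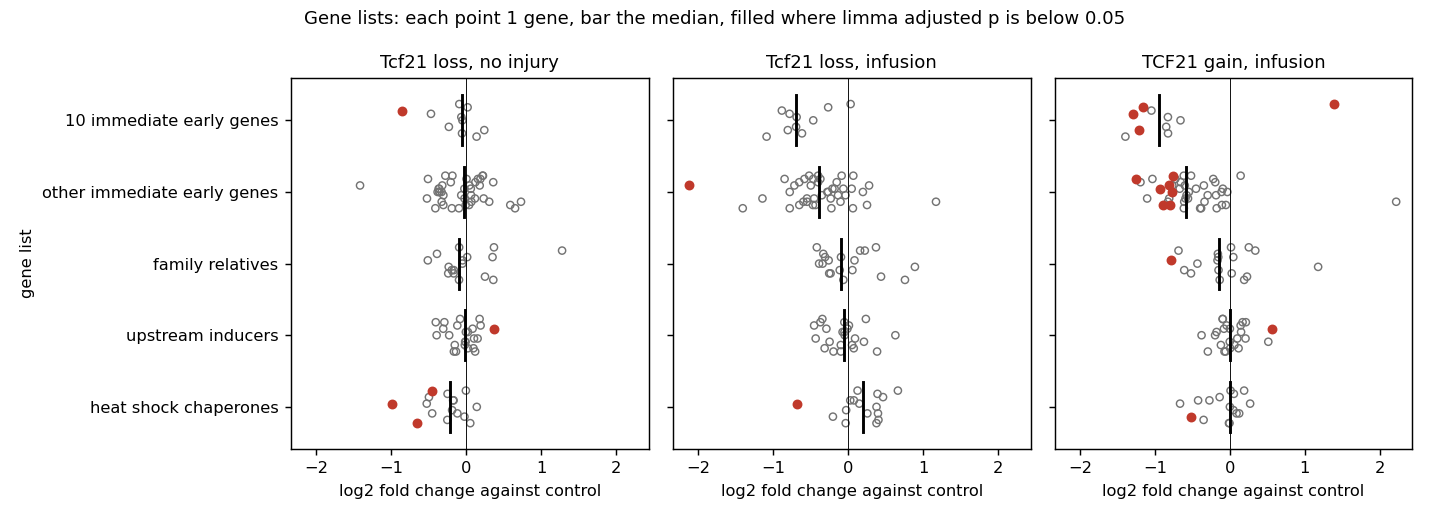
Log2 fold change against control (x axis) of each tested gene in 5 gene lists (y axis) for the 3 comparisons; each point is 1 gene, the bar is the list median and filled points have a limma adjusted p below 0.05. The medians of the 10 genes and of the other immediate early genes move from -0.06 and -0.02 without injury to -0.95 and -0.59 with the transgene, while those of the inducers stay between -0.05 and 0.00.

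By the GENCODE vM21 annotation (GRCm38), Fos lies on chromosome 12 from 85473890 to 85477273 (plus strand), Nr4a1 on 15 from 101254269 to 101274795 (plus), Btg2 on 1 from 134075170 to 134079120 (minus), Gadd45b on 10 from 80930073 to 80932204 (plus) and Egr3 on 14 from 70077203 to 70082614 (plus). Exons of Junb (chromosome 8, 84974484 to 84978718, minus) overlap those of Prdx2 on the other strand, and exons of Jun (chromosome 4, 95049034 to 95052222, minus) overlap the antisense gene Junos. No source used here says that the counting used strand, so reads of these pairs cannot be told apart. Prdx2 had log2 differences of 0.21, 0.05 and 0.02 in the 3 comparisons, none past the limma threshold. Junos differed by -0.71 without injury (SE 0.35, limma adjusted p = 0.284) and by 0.18 with gain (SE 0.38, adjusted p = 0.848). It was not among the genes tested for loss under infusion.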

How the data were processed

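The data are RNA-seq levels of sorted mouse cardiac fibroblasts from 16 libraries, deposited as 3 tables. The deposited values are a normalized signal: the authors divided estimated counts per gene by factors set for each table on its own. The submitters' processing notes name kallisto, DESeq2 and GRCm38, without versions. Per the labels' protocols, cDNA was amplified with a low-input SMART-seq method. Of the low values (0.5 to 6), 35.6% to 67.5% fell within 0.03 of a whole step, so reads were not recovered, depth per gene is unknown and no count model was fitted.

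Genes with a table mean of at least 10 (15544 for loss without injury, 14799 for loss and 15369 for gain under infusion) entered limma 3.58.1 (R 4.3.3) as log2(value + 1), with only the groups compared. The fit used lmFit and eBayes with a trend on the mean, two-sided p-values and Benjamini-Hochberg adjustment over all tested genes, called below 0.05. Fold changes on this scale understate the change of low genes. Differences between effects were interaction contrasts over 4 groups. The scripts were tested on simulated data. The members and lists were chosen with earlier results of these data known. Besides the 10 genes and Tcf21, up to 4 genes with the smallest p per list and comparison, and the 6 genes most like the mean profile, were named. Alternatives were a pseudocount of 10 or 0.5, no filter or a mean of at least 50, median-ratio or 75th percentile rescaling, no variance trend, arrayWeights, a replicate block and leaving out each library; counts within the other lists under these settings were added after the data were seen. Exon lengths were unions of GENCODE vM21 exons, matched for 89.8% of the tested genes of the uninjured table.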

Additional observations from a re-analysis of the deposited data

Results flagged for a closer look

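For 2 genes the effect of loss and the effect of gain under infusion differed by a test of that difference. The Egr3 effect of deletion (log2 0.03) minus that of the transgene (1.39) was -1.36 (95% interval -1.77 to -0.94, limma adjusted p = 0.00547). The Gadd45b effect of deletion (-0.27) minus that of the transgene (-1.16) was 0.90 (0.55 to 1.24, adjusted p = 0.0179). For Egr3 both transgenic libraries lay above all 3 of their controls and the deleted libraries lay around theirs. For Gadd45b both transgenic libraries lay below all 3 of their controls, and 1 of the 2 deleted libraries did. No group had the 4 libraries that a check for single outlying values needs.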

How the results depend on the processing

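For the 10 genes, 770 of 820 combinations of gene, comparison or difference, and alternative kept their side of the threshold, 34 newly passed and 16 no longer passed. A value that passed in neither run counted as kept even where its sign changed. No called value changed sign. Without the variance trend, all genes passing were 94 in place of 557 without injury, 72 in place of 135 with loss under infusion, 25 in place of 637 with gain and 263 in place of 420 for loss minus gain, and the 10 genes gave 0 in place of 1 without injury, 0 in place of 4 with gain and 1 in place of 2 for loss minus gain. With arrayWeights all genes passing were 949, 308, 1013, 39 (21 in the interaction of loss with infusion) and 780, and the 10 genes gave 2 with loss under infusion and 9 with gain. Leaving out 1 library gave 88 to 891, 32 to 175, 124 to 821, 12 to 57 and 155 to 436 genes in the same order, and 0 to 1, 0 to 1, 2 to 9, 0 to 0 and 1 to 2 of the 10 genes. Where an arm kept 1 library, it was assumed to vary like the other group. The cause was not tested.

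Replicate numbers were not taken as pairs in the main fit. Deviations of same-numbered libraries from their group means correlated at 0.03, -0.05 and -0.04 without injury. They correlated at 0.18 and -0.04 with loss under infusion and at 0.10 and 0.06 with gain. In a group of 2 libraries the deviations mirror each other, so these values cannot decide whether libraries were paired. With a replicate block all genes passing were 227, 1462, 1842, 79 and 901, and the 10 genes gave 8 with loss under infusion, 10 with gain and 1 for the interaction. In the infused tables control library 3 has no partner, so the block drops it from the contrast, and few degrees of freedom remain. Depth per gene is unknown, so counting error could not be separated from the spread between libraries.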

Other observations

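Repressors and co-repressors of AP-1 and Egr factors, a list of 11 genes, had 0 members past the limma threshold in each of the 3 comparisons. Of all tested genes 3.58%, 0.912% and 4.14% passed. At an unadjusted p under 0.05 there were 2, 1 and 3 among 11, 9 and 10 tested, against 21.2%, 16.1% and 20.4% of all. Nab2, an Egr co-repressor that Egr factors induce, had a log2 difference of -0.21 without injury, 0.07 with loss and -0.16 with gain under infusion.

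Within libraries, the log2 ratio of Fosb to Fos, set to 0 at the control mean, was -0.30 and -0.47 with the transgene and -0.26 to 0.21 in its controls. Without injury it was 0.12 to 0.62 after deletion and -0.28 to 0.50 in controls, and these ranges overlapped. The ratio of Egr3 to Egr1 was 0.50 and 0.96 after deletion under infusion and -0.28 to 0.28 in its controls.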
